A study of Homo sapiens with 6 samples.

Results

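The genes described here encode the cytosolic translation factors that start, extend and end protein synthesis. They were taken by name: every gene whose platform symbol begins with EIF or EEF and a digit, together with ETF1, GSPT1, PABPC1 and PABPC4, leaving out the EIF2AK kinases and pseudogenes. A gene was measured when a probe had a detection p-value under 0.01 on at least 3 of the 6 arrays, and its brightest such probe stood for it. Of 66 such genes with a named probe, 59 were measured, among 10598 measured genes in all. All 59 were detected on all 6 arrays. The 7 not measured were EIF1AD, EIF1AY, EIF4E, EIF4E1B, EIF5AL1 and the noncoding EIF3J-DT, which were detected on no array, and EIF3C, detected on 1.

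The arrays came from Hep3B, an established line of human liver cancer cells. The sorafenib group (3 samples) had been given sorafenib, a drug that blocks RAF kinases and several receptor tyrosine kinases, at a stated 3 mM for 24 h, and the control group (3 samples) the solvent DMSO for 24 h. Nothing says that the samples of a group were grown separately, and the p-values cover only the spread among these arrays, which may be technical. By the series title, the study concerned protein disulfide isomerase inhibition beside sorafenib; these samples compare sorafenib with solvent.

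Between 16214 and 17380 probes were detected on an array. All 9 hepatocyte markers examined were detected on every array, AFP and ALB among them, and 8 of 10 markers of other cell types on none. The other 2, CD68 and KRT19, were detected on all arrays, and the summed level of those 10 markers was 11.85 to 11.98 on sorafenib arrays, against 12.48 to 12.64 on control arrays (log2). KRT19 averaged 11.60 with sorafenib and 12.33 in control, while CD68 was nearly level at 9.02 and 9.07. Their part in the results was not tested, and with RNA from whole cultures, fewer cells of a type and less RNA per cell cannot be told apart. A second principal component (13.5% of the variance, after 67.9% for the one separating the groups) set the third array of each group apart from the others.

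In translation initiation, eIF2 carries the initiator tRNA to the small ribosomal subunit, and eIF2B recharges eIF2 with GTP after each round. The many-subunit eIF3 binds the small subunit and mRNA, while the eIF4 factors recognise the cap and unwind the leader of the mRNA. During elongation, eEF1A delivers aminoacyl-tRNAs and eEF2 moves the ribosome along. Binding of the initiator tRNA and of the cap are well-known control points: phosphorylation of eIF2 by stress kinases lowers general initiation, and 4E-binding proteins, when not phosphorylated by the kinase mTOR, block the cap-binding factor.

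Differences in translation factor genes were small, and more genes rose than fell. With sorafenib, 14 of the 59 rose, 5 fell and 40 did not pass (limma, Benjamini-Hochberg adjusted p under 0.05 over all 16909 probes tested). Over all measured genes 36.7% passed, 19.7% higher and 17% lower (of all tested probes, 34.1%, 17.9% and 16.2%). The members' shares were 32.2% in all, 23.7% higher and 8.47% lower. Most members, 42 of 59, were in the brightest of 3 equal intensity classes of genes, where 14 of the 42 passed against 36.1% of all genes there. The median log2 difference of the members was 0.12 (sorafenib minus control), against -0.00054 over all measured genes. A difference of at least 1.5-fold was reached by EIF4EBP1 and EEF1AKMT3 alone among the members, 2 of 59, while 11.1% of all genes reached it. The split depended on scaling. Centring each array on the tested probes gave 8 higher and 9 lower, and centring on all probes gave 8 higher and none lower.

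**Figure D1:**
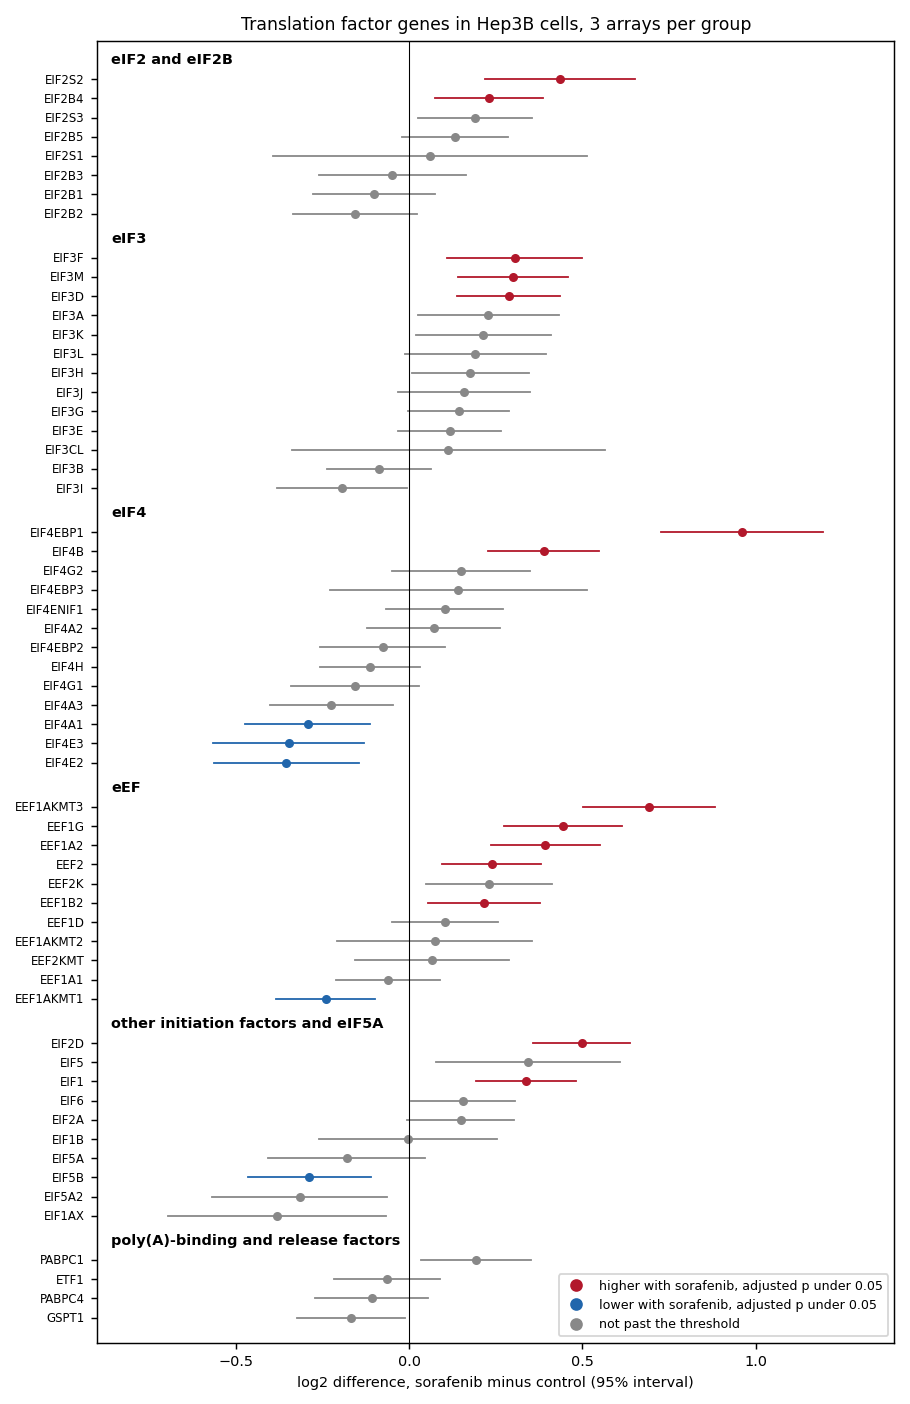
Log2 difference of each translation factor gene (sorafenib minus control; points, with 95% intervals from limma, 3 arrays per group), ordered by size within functional groups. Red marks the 14 genes that rose and blue the 5 that fell; EIF4EBP1 at 0.96 stands farthest from 0.

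The medians of the groups of factors ranged from -0.09 to 0.22. By comparison, 19.7% of all measured genes were higher and 17% lower. The eEF group had a median difference of 0.22 (5 of 11 higher, 45.5%, and 1 lower, 9.09%). The eIF3 group had 0.18 (3 of 13 higher, 23.1%, none lower). Within eEF, the median was 0.23 for the 6 eEF1 and eEF2 genes and 0.07 for the 5 modifying enzymes. The eIF2 and eIF2B group had 0.10 (2 of 8 higher, 25%, none lower). The eIF4 group had -0.08 (2 of 13 higher, 15.4%, and 3 lower, 23.1%). That group includes the 4E-binding proteins, and its median is the value of one of them, EIF4EBP2. For its 6 eIF4A, eIF4B, eIF4G and eIF4H genes, EIF4A3 left out, the median was -0.02 (1 higher, 1 lower). The remaining initiation factors with eIF5A had 0.07 (2 of 10 higher, 20%, and 1 lower, 10%). The 4 poly(A)-binding and release factors had -0.09 with none past the threshold. Centring each array on all probes turned the eIF4 median to 0.0153, and taking the median over a gene's probes turned that of the remaining initiation factors to -0.0899. Leaving out 1 array moved the eIF2 and eIF2B median to between 0.0165 (without sorafenib array 3) and 0.172 (without sorafenib array 1), and by over 1.5 times without any 1 control array. The eIF4 median became -0.0265 without control array 3 and -0.115 without control array 2. That of the remaining initiation factors became 0.0384 without sorafenib array 3, 0.0388 without sorafenib array 2, 0.126 without sorafenib array 1 and 0.045 without control array 1, and the poly(A)-binding and release median -0.0486 without sorafenib array 3. The interquartile range of the differences was 0.11 within eIF3, 0.12 within the poly(A)-binding and release factors, 0.25 within eEF, 0.26 within eIF2 and eIF2B, 0.37 within eIF4 and 0.55 within the remaining initiation factors, against 0.41 over all genes. These medians are descriptions and were not tested against each other. Sorafenib and control arrays did not overlap for 42 of the 59 genes, against 53.5% of all measured genes.

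**Figure D2:**
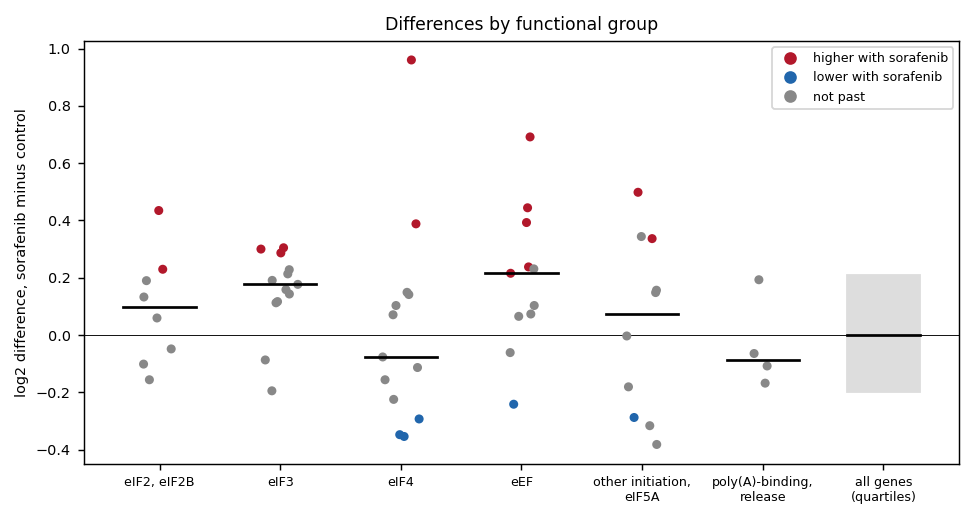
Log2 difference of each gene (sorafenib minus control) by functional group, with black bars at group medians and, at the right, the quartiles of all 10598 measured genes. The eEF and eIF3 medians (0.22 and 0.18) lie above 0 and the eIF4 median (-0.08) below it.

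Many messages of the translation machinery begin with a C followed by an unbroken pyrimidine stretch, the 5′ terminal oligopyrimidine (TOP) motif, through which mTOR and LARP1 control their translation and storage. RefSeq start windows (GRCh38.p14, 250 bases before to 50 after an annotated start) matched 44 of the 59 genes; EEF1A2, EEF1AKMT1, EEF1AKMT3, EEF1D, EEF2KMT, EIF2S2, EIF3A, EIF3CL, EIF3E, EIF3G, EIF3H, EIF3L, EIF4EBP1, PABPC1 and PABPC4 were not matched. They were searched, on the transcript's strand, for a C at the start followed by at least 4 bases that are C or T. A gene counted when any of its annotated starts had the run. The run was present in 12 of the 44 genes (27.3%), against 7.85% of 8657 measured genes with a window and 4.07% of all windows. The grouping by start was chosen after the expression values had been seen.

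The start is given for 7 genes with the run that rose, 2 with the run that did not pass, and 2 without it that fell. They were picked by these calls. Not shown are, among others, EIF3K, EIF2A and EIF4A2, which had the run and did not pass. EEF1G, EIF1 and EIF2B4, which rose without the run, are not shown either. Each line holds 15 bases before and 15 bases from the start, 5′ to 3′ on the transcript's strand, and capitals mark the pyrimidine run. The run of EEF1B2 fills all 15 bases from its start, so the line may cut it short.
EIF2D (chr1:206612451-206612480, minus strand): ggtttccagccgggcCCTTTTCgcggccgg
EIF4B (chr12:53006441-53006470, plus strand): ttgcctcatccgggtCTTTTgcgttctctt
EIF3F (chr11:7987322-7987351, plus strand): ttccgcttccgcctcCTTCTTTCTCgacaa
EIF3M (chr11:32583816-32583845, plus strand): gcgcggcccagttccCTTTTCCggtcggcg
EIF3D (chr22:36529152-36529181, minus strand): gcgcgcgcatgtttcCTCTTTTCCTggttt
EEF2 (chr19:3985449-3985478, minus strand): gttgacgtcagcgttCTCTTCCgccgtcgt
EEF1B2 (second of 2 starts, chr2:206159880-206159909, plus strand): ccggtctcttcgggtCCTTTTTCCTCTCTT
EIF2S3 (chrX:24054941-24054970, plus strand): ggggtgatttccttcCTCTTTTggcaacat
EEF1A1 (chr6:73521018-73521047, minus strand): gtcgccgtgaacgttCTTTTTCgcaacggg
EIF4A1 (chr17:7572810-7572839, plus strand): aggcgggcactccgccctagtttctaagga
EIF5B (chr2:99337374-99337403, plus strand): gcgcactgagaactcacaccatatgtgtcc

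With this grouping, chosen after the expression values had been seen, members with a pyrimidine run at the start lay higher than those without. The 15 unmatched members could not be placed. Among them EIF4EBP1, EEF1AKMT3, EIF2S2 and EEF1A2 rose and EEF1AKMT1 fell. Of the 12 with the run, 7 rose (58.3%) and none fell, with a median difference of 0.23. These rises depended on scaling: EIF3D, EIF3F, EIF3M, EEF2 and EEF1B2 passed with neither centring of the arrays, EIF2D and EIF4B with both. The 5 that did not pass were EIF3K, EIF2S3, EIF2A, EIF4A2 and EEF1A1, of which EEF1A1, whose probe was at the top of the intensity scale, was the single negative one. Of the 32 without the run, 3 rose (EEF1G, EIF1 and EIF2B4) and 4 fell (EIF4E2, EIF4E3, EIF4A1 and EIF5B), with a median of -0.07. These are shares of 9.38% higher and 12.5% lower. Over the other measured genes the contrast was small. The 668 with the run had a median of 0.04, with 22% higher and 15% lower. The 7945 without it had a median of -0.0034, with 19.5% higher and 17.3% lower. The 43 ribosomal protein genes with the run had a median of 0.06 (8 higher, 18.6%, and 1 lower, 2.33%). These counts describe the genes and were not tested. Absence of the run says only that these letters were not at an annotated start.

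**Figure D3:**
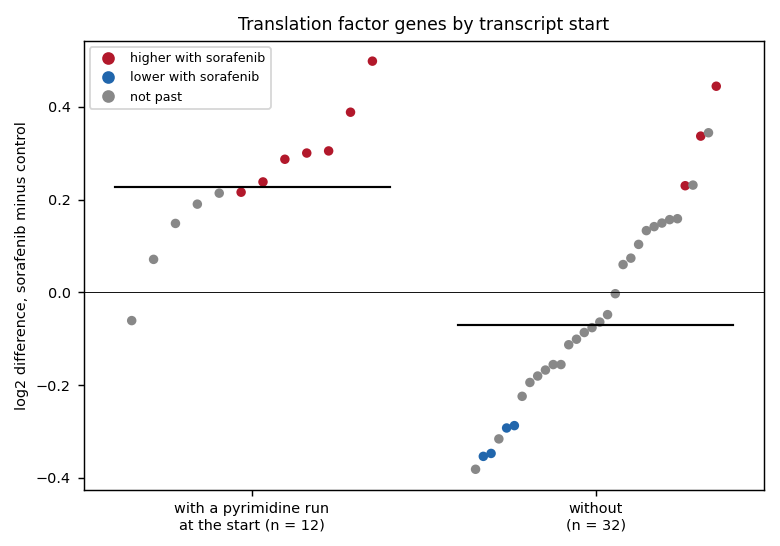
Log2 difference (sorafenib minus control) of the 44 translation factor genes with a RefSeq start window, those with a pyrimidine run at the start at the left and those without at the right, each sorted by size with a bar at the median. Medians are 0.23 (n = 12) and -0.07 (n = 32), and the 4 genes in blue that fell are all at the right. The 15 members without a matched window are not shown, and the grouping was chosen after the expression values had been seen.

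Among the eIF4 factors, EIF4EBP1, which encodes a 4E-binding protein that binds and inhibits the cap-binding factor, had the largest difference of any member. Its level was 9.44, 9.62 and 9.64 on sorafenib arrays 1 to 3, against 8.59, 8.47 and 8.77 on control arrays 1 to 3 (log2 intensity, the scale of all levels below). Every sorafenib array lay above every control array, and the gene rose 1.95-fold (log2 0.96 ± 0.10, SE, limma adjusted p = 0.000660). Its paralog EIF4EBP2 read 9.85, 9.80 and 9.87 with sorafenib, against 9.93, 9.80 and 10.02 in control. These overlapped, and the difference was -0.08 with a 95% interval of -0.26 to 0.10. EIF4EBP3 differed by 0.14 with a wide interval (-0.23 to 0.51).

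The helicase eIF4A is encoded by 2 close paralogs, of which EIF4A1 fell. EIF4A1 stood at 14.28, 14.19 and 14.35 in sorafenib samples and at 14.55, 14.50 and 14.65 in control samples, without overlap (log2 -0.29 ± 0.08, SE, limma adjusted p = 0.0244). A dimmer EIF4A1 probe differed by -0.24 and did not pass. EIF4A2 gave 14.24, 14.50 and 14.34 under sorafenib, overlapping the 14.29, 14.28 and 14.31 of control (0.07, 95% interval -0.12 to 0.26). EIF4A3, an exon junction helicase rather than an initiation factor, differed by -0.22 (adjusted p = 0.0566).

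EIF4B, the RNA-binding cofactor of eIF4A, rose. It measured 13.43, 13.35 and 13.45 after sorafenib, against 12.98, 13.00 and 13.09 in control (0.39 ± 0.07, SE, limma adjusted p = 0.00538). The related cofactor EIF4H differed by -0.11, the scaffolds EIF4G1 and EIF4G2 by -0.16 and 0.15, and the eIF4E transporter EIF4ENIF1 by 0.10, none past the threshold. Both tested EIF4G1 probes lay below 0 (-0.16 and -0.18) and all 3 EIF4G2 probes above it (0.13 to 0.31), though no single one passed.

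The cap-binding factor itself, EIF4E, could not be followed: none of its 5 probes was detected on any array. Its relatives were measured. EIF4E2, a cap-binding homolog known as a repressor, read 11.88, 11.78 and 11.99 with sorafenib, against 12.30, 12.11 and 12.30 in control. It fell by 0.35 ± 0.09 on the log2 scale (SE, limma adjusted p = 0.0209). EIF4E3, another homolog, was at 6.97, 6.76 and 6.94 under sorafenib, against 7.37, 7.13 and 7.21 in control, and fell by 0.35 ± 0.09. Neither gene's groups overlapped. The 3 falls of this group were among the less stable calls. EIF4A1 and EIF4E2 did not pass without control array 1 or 3 or sorafenib array 1 or 2 (adjusted p up to 0.0777 and 0.0726), and EIF4E3 did not without control array 1 or 3 or sorafenib array 2 (up to 0.0829). All 3 were also lost without the filter on dim probes and with centring on all probes. That centring gave limma adjusted p = 0.129 for EIF4A1, 0.0660 for EIF4E2 and 0.243 for EIF4E3. EIF4EBP1 and EIF4B passed in each of the 19 alternative analyses.

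**Figure D4:**
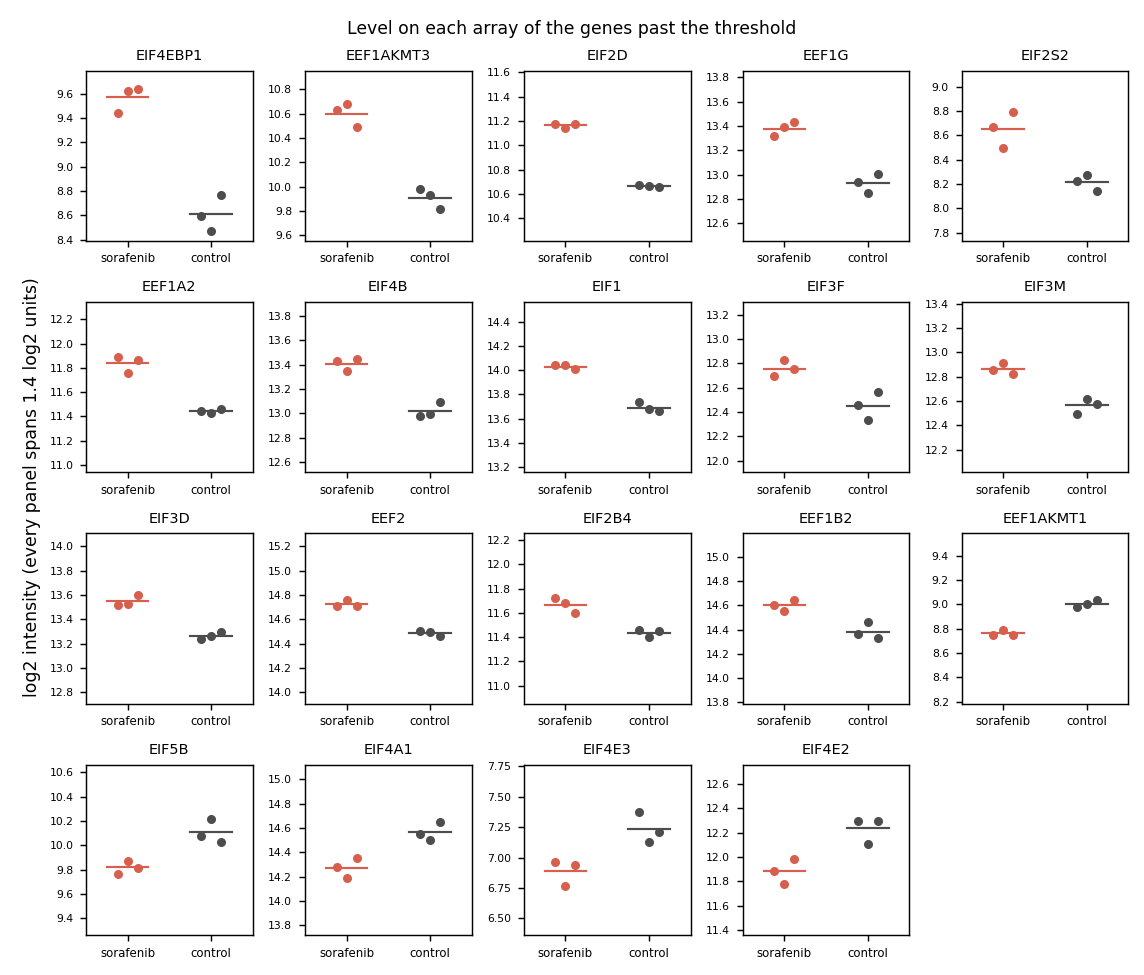
Log2 intensity on each array for the 19 genes past the threshold, sorafenib left of control in every panel (points are arrays, bars are means of 3). In each panel the 3 sorafenib arrays lie all above or all below the 3 control arrays.

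Among the elongation factors, 4 of the 6 genes for eEF1 and eEF2 themselves rose (66.7%) and none fell. Of all measured genes, 19.7% rose and 17% fell. EEF2 and EEF1B2 passed with neither centring of the arrays. EEF1G, the gamma subunit of the eEF1 exchange complex, read 13.31, 13.39 and 13.43 with sorafenib, against 12.94, 12.85 and 13.01 in control, a 1.36-fold rise (log2 0.44 ± 0.07, SE, limma adjusted p = 0.00397). EEF1B2, the nucleotide exchange subunit, stood at 14.60, 14.55 and 14.64 under sorafenib and at 14.36, 14.46 and 14.33 in control (0.22 ± 0.07, adjusted p = 0.0480, by limma). Its second-brightest probe rose by 0.32, and its other 2 tested probes differed by 0.20 and 0.07 without passing. EEF1D, the other exchange subunit, differed by 0.10 (95% interval -0.05 to 0.26).

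EEF2, the translocase, measured 14.71, 14.76 and 14.71 after sorafenib, against 14.51, 14.49 and 14.46 in control. That is a 1.18-fold rise (0.24 ± 0.06, SE, limma adjusted p = 0.0221). The kinase that inhibits eEF2, EEF2K, lay at 0.23 as well (adjusted p = 0.0556) and did not pass.

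The tRNA-delivering factor eEF1A has 2 gene copies. EEF1A2, usually most abundant in muscle and neurons and reported in some tumours, read 11.89, 11.76 and 11.86 in sorafenib samples, against 11.45, 11.43 and 11.46 in control samples (0.39 ± 0.07, SE, limma adjusted p = 0.00465). EEF1A1, the widespread copy, was at the ceiling of the scale. Its brightest probe had the highest intensity of all probes on the 3 control arrays and on sorafenib array 3, so quantile normalization gave 15.63 on each of these, beside 15.57 and 15.51 on sorafenib arrays 1 and 2. The difference of -0.06 is therefore not informative about small changes. The 3 brightest EEF1A1 probes differed by -0.06, 0.09 and -0.05, and a much dimmer one by 0.18, none past the threshold. Probes of these near-identical copies, and of the many EEF1A1 pseudogenes, may bind each other's transcripts.

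Enzymes that modify the elongation factors share their symbols. EEF1AKMT3, a lysine methyltransferase of eEF1A, had the second-largest member difference: 10.63, 10.68 and 10.49 with sorafenib, against 9.98, 9.93 and 9.81 in control (1.62-fold, log2 0.69 ± 0.08, SE, limma adjusted p = 0.00104). EEF1AKMT1, another such methyltransferase, gave 8.75, 8.79 and 8.75 under sorafenib, below the control values of 8.98, 9.00 and 9.03, and fell by 0.24 ± 0.06. EEF1AKMT2 differed by 0.07. For EEF2KMT, the eEF2 methyltransferase, the probes disagreed: the brightest differed by 0.07 without passing, while a probe of nearly equal intensity rose by 0.51 ± 0.07 (limma adjusted p = 0.00226).

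EEF1A2, EEF1G and EEF1AKMT3 passed in all 19 alternatives. EEF2 did not pass without any one of the 3 control arrays, sorafenib array 1 or sorafenib array 2 (adjusted p up to 0.0705). EEF1B2 did not without control array 1 or 3 or any 1 sorafenib array (up to 0.134), nor with the replicate number as a block. With either centring, or without the filter on dim probes, neither EEF2 nor EEF1B2 passed (up to 0.111 and 0.196). EEF1AKMT1 did not pass without any 1 control array or sorafenib array 1 (up to 0.0728). Centring on all probes, or leaving off that filter, also lost EEF1AKMT1.

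Of the 13 measured eIF3 genes, 11 had a positive difference, in a narrow range. Over all measured genes, 5296 of 10598 were positive. The eIF3 genes that rose were EIF3F, EIF3M and EIF3D. EIF3F stood at 12.69, 12.83 and 12.75 with sorafenib, against 12.46, 12.33 and 12.57 in control (0.30 ± 0.08, SE, limma adjusted p = 0.0275). EIF3M read 12.86, 12.91 and 12.82 under sorafenib, against 12.50, 12.62 and 12.58 in control, and rose by 0.30 ± 0.07, with a second probe that also rose (0.40). EIF3D, a subunit that can bind the cap of some mRNAs, measured 13.52, 13.53 and 13.60 after sorafenib, against 13.23, 13.26 and 13.29 in control (0.29 ± 0.06). The groups did not overlap for these 3 genes.

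EIF3F and EIF3M belong to the eIF3 core of PCI and MPN domain proteins. The 8 measured genes of that core had differences between 0.11 and 0.30, all positive, with a median of 0.20. Of these 8, 2 rose (25%), against 19.7% of all measured genes. The 6 that did not pass were EIF3A (0.23), EIF3K (0.21), EIF3L (0.19), EIF3H (0.18), EIF3E (0.12) and EIF3CL (0.11). EIF3CL stands for eIF3c here and is uncertain, because EIF3C, its near-identical copy, was detected on only 1 array. A second EIF3L probe rose by 0.31. The peripheral subunit EIF3J differed by 0.16.

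The b, g and i subunits form a separate module of eIF3. EIF3B differed by -0.09, EIF3I by -0.19 and EIF3G by 0.14, none past the threshold. All 3 EIF3B probes lay below 0 (-0.04 to -0.23). EIF3D and EIF3M did not pass without control array 1 (adjusted p = 0.0532 and 0.0569) or with either centring. EIF3F did not pass without control array 1 or 2 or any 1 sorafenib array (up to 0.0867), nor with the replicate number as a block. It also did not pass with either centring or without the filter on dim probes (up to 0.0992).

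In the ternary complex, EIF2S2, the beta subunit of eIF2, rose. It read 8.66, 8.49 and 8.79 with sorafenib, against 8.22, 8.28 and 8.14 in control (1.35-fold, log2 0.43 ± 0.09, SE, limma adjusted p = 0.0111). EIF2S1, the alpha subunit on which the stress kinases act, varied widely within each group: 7.44, 7.83 and 8.01 under sorafenib, against 7.52, 8.05 and 7.53 in control. Its difference of 0.06 had a 95% interval of -0.39 to 0.51. EIF2S3, the GTP-binding gamma subunit, was at 12.05, 12.11 and 11.95 in sorafenib samples and 11.85, 11.84 and 11.85 in control samples, apart but not past the threshold (0.19, adjusted p = 0.0735). It passed in 5 of the 19 alternatives, namely without sorafenib array 3 (adjusted p = 0.0480), with normexp, without background correction, with an intensity trend and with array weights (range over the 19, 0.0224 to 0.246). EIF2S2 did not pass with array 3 of both groups left out (adjusted p = 0.0520).

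Of the 5 subunits of the exchange factor eIF2B, 1 passed the threshold. EIF2B4, the delta subunit, rose by 0.23 ± 0.07 (SE, limma adjusted p = 0.0335), with 11.72, 11.68 and 11.60 under sorafenib, against 11.46, 11.40 and 11.45 in control. A second EIF2B4 probe rose by 0.21. The call was lost without any 1 control array and without sorafenib array 1 or 2 (adjusted p up to 0.112), and with the replicate number as a block. It was also lost with either centring and without the filter on dim probes (up to 0.124). The catalytic epsilon subunit EIF2B5 differed by 0.13, the gamma subunit EIF2B3 by -0.05, and the alpha and beta subunits EIF2B1 and EIF2B2 by -0.10 and -0.16, none past the threshold.

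Among the other initiation factors, EIF2D had the smallest standard error of any member. This noncanonical factor, which can bring tRNA to the small subunit independently of eIF2, read 11.17, 11.14 and 11.18 with sorafenib, against 10.68, 10.66 and 10.66 in control. It rose 1.41-fold (log2 0.50 ± 0.06, SE, limma adjusted p = 0.00114). EIF1, which guards start codon choice, stood at 14.04, 14.04 and 14.01 under sorafenib, against 13.73, 13.68 and 13.66 in control (0.34 ± 0.06, limma adjusted p = 0.00625). EIF2D and EIF1 passed in all 19 alternatives. The EIF1 paralog EIF1B gave 10.30, 10.62 and 10.63 with sorafenib, overlapping the control values of 10.43, 10.62 and 10.52, with a difference of -0.0031 (95% interval -0.26 to 0.25).

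EIF5B, the GTPase that joins the ribosomal subunits, fell. It measured 9.77, 9.87 and 9.82 after sorafenib, against 10.07, 10.21 and 10.03 in control (-0.29 ± 0.08, SE, limma adjusted p = 0.0249). That call was lost without control array 1 or 2 or sorafenib array 1 or 3 (adjusted p up to 0.0841). It was also lost with centring on all probes (limma adjusted p = 0.226), without the filter on dim probes and with array 3 of both groups left out. EIF1AX, which scans together with EIF1, differed by -0.38 (adjusted p = 0.0646). EIF5, the GTPase activator of eIF2, differed by 0.34 (adjusted p = 0.0522) on its brightest probe, while its dimmest tested probe fell by 0.43, so its direction is uncertain. EIF5A, which relieves ribosome stalling, differed by -0.18 and its paralog EIF5A2 by -0.32. EIF2A differed by 0.15 and the subunit anti-association factor EIF6 by 0.16, and none of these 6 passed.

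PABPC1, the main cytoplasmic poly(A)-binding protein, was at 14.38, 14.39 and 14.28 with sorafenib, against 14.17, 14.10 and 14.20 in control. The groups were apart, yet the difference of 0.19 did not pass (adjusted p = 0.0651). A dimmer probe differed by 0.44 (adjusted p = 0.0982). The median over both probes was 0.32 and passed (adjusted p = 0.0344), as did the gene in 4 other of the 19 alternatives. Its paralog PABPC4 lay the other way, at 12.35, 12.37 and 12.23 under sorafenib and 12.47, 12.40 and 12.40 in control (-0.11, 95% interval -0.27 to 0.06). The release factors ETF1 and GSPT1, which end translation at stop codons, differed by -0.06 and -0.17.

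For 4 pairs of related genes, the log2 differences (sorafenib minus control) of the pair were set against each other within arrays. The difference of EIF4EBP1 exceeded that of EIF4EBP2 by 1.04, that of EIF4A2 exceeded that of EIF4A1 by 0.36, that of EIF1 exceeded that of EIF1B by 0.34, and that of PABPC1 exceeded that of PABPC4 by 0.30. In each pair the first gene's value minus the second's was higher on all 3 sorafenib arrays than on all 3 control arrays. EIF4EBP1, EIF4A1 and EIF1 had already passed by themselves in these data. Groups did not overlap for 53.5% of all measured single genes, and no such share was computed for pairs. An exact two-sided permutation test gave p = 0.1 for each pair (0.1 after Benjamini-Hochberg over the 4), the smallest value that 3 against 3 samples allow. EEF1A2 and EEF1A1 were not compared in this way, because the EEF1A1 probe was at the ceiling.

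Regulators and partners of the factors showed few changes. Of 28 measured genes in a list of 32, 3 rose and none fell, a share of 10.7%, against 36.7% of all measured genes past in either direction and 19.7% higher, with a median difference of 0.06. MKNK2, a kinase that phosphorylates eIF4E, read 11.90, 12.01 and 11.99 with sorafenib, against 11.22, 11.09 and 11.10 in control (1.78-fold, log2 0.83 ± 0.07, SE, limma adjusted p = 0.000300), while its paralog MKNK1 differed by 0.02. PPP1R15A, the stress-induced subunit that directs a phosphatase to eIF2, stood at 11.63, 11.63 and 11.80 under sorafenib, against 11.07, 11.03 and 11.00 in control (0.65 ± 0.07). EIF2AK2, the double-stranded RNA-activated eIF2 kinase, rose by 0.44 ± 0.12, and the other three eIF2 kinases differed by 0.04 to 0.15 without passing. MTOR differed by 0.06.

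Mitochondria use their own translation factors. Of 11 measured in a list of 12, 3 rose and none fell (27.3%), with a median of 0.16. Over all measured genes 36.7% passed, 19.7% higher and 17% lower. The initiation factor MTIF2 measured 12.08, 12.07 and 11.83 after sorafenib, against 11.65, 11.64 and 11.57 in control (0.37 ± 0.09, SE, limma adjusted p = 0.0169). MRPL58, a ribosome-rescuing hydrolase, rose by 0.35 ± 0.07 and the elongation factor-like GUF1 by 0.26 ± 0.07. The elongation factor genes TUFM, TSFM and GFM1 differed by 0.0084, -0.12 and -0.04, none past the threshold.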

How the data were processed

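Total RNA of 6 Hep3B samples was labelled as biotinylated cRNA for Illumina Expression BeadChips, per the labels' protocols. For each array the authors deposited the intensity of 47321 probes, not normalized, each with its detection p-value, per the file headers. They also deposited log2 values; log2 of the raw intensity with quantile normalization gave these to within 5.0e-07. Intensities were background-corrected with neqc (limma 3.58.1, R 4.3.3, offset 16), normalized by quantiles and logged (log2). Probes with a detection p under 0.01 on at least 3 arrays (16909) entered lmFit and eBayes for sorafenib minus control, with Benjamini-Hochberg adjustment over all of them and a threshold of 0.05. The number of arrays limits the precision. The test was run on simulated data first.

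Gene names came from the platform annotation (30112 probes with 1 gene, 8 with several, 17201 with none). Array values are given for members past the threshold, up to 4 rises and 4 falls per functional group, and for paralog pairs; EEF1B2, the fifth rise of its group, was added after its values were seen. Of the other lists, up to 3 rises and 3 falls are named. Members, lists and rules were chosen with earlier results of these data known. Start windows and gene positions are from RefSeq. Alternatives covered background correction, scaling, filter, block, variance model, weights, probe summary and leaving out arrays.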

Additional observations from a re-analysis of the deposited data

How the results depend on the processing

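The number of translation factor genes past the threshold was 19 (14 higher, 5 lower) and ranged from 8 to 32 over 19 alternatives. It was 32 (23 higher, 9 lower) with an intensity trend in eBayes and 10, none lower, without the filter on dim probes. With each array centred on its median over all probes it was 8, all higher and 0 lower, the median over members was 0.18, the eIF4 median 0.0153, that of members without a start run -0.0196, and EIF4EBP2 and EIF1B stood at 0.0153 and 0.0743. With centring on the tested probes it was 17 (8 higher, 9 lower), the poly(A)-binding and release median was -0.16, that of members with a start run 0.17, and EIF4A2 stood at -0.0047. Cyclic loess gave 0.28 for members with the run and 0.0091 for EIF1B. The median over a gene's probes gave -0.0899 for the other initiation factors. Leaving out 1 array at a time gave 10 to 19 genes past, 9 to 14 higher and 1 to 5 lower, a median of 0.22 to 0.27 for members with the run, -0.0669 to 0.23 for EIF2S1 and -0.0594 to 0.105 for EIF1B. The count was 10 without control array 1, 12 without control array 3, sorafenib array 1 or sorafenib array 2. Leaving out array 3 of both groups, chosen after seeing the data, gave 14 past (12 higher, 2 lower), 0.0019 for the eIF2 and eIF2B median and -0.15 for EIF2S1. The causes of these changes were not tested, beyond the fewer samples or larger number of probes that some alternatives entail. The replicate numbers were not shown to pair the samples: same-numbered samples correlated in their deviations at 0.0889, 0.101 and 0.252, and sorafenib array 1 correlated best with control array 2. The replicate block gave 16 genes (11 higher, 5 lower). Of the 19 calls, 7 held in every alternative. The eIF3 and eEF medians stayed within 0.13 to 0.22 and 0.16 to 0.25. Signals near background limit the data: 7 candidate genes were not measured, EIF4E among them.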

Other observations

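Other short motifs were looked for in the start windows of the 44 matched translation factor genes, on both strands and at any place in the window. CACGTG, the E-box core bound by MYC and related factors, was in 11 of the 44 (25%), against 13.1% of measured genes. Members with it had a median log2 difference of -0.0031 (2 higher, none lower) and the 33 without it 0.07 (8 higher, 4 lower). The share higher was 18.2% of the 11 members with it, near the 19.7% of 1119 other measured genes with it (14.4% lower). Of 7494 other genes without it, 19.7% were higher and 17.6% lower. TGATGNAA, a form of the element bound by ATF4 and C/EBP factors, was in 1 member, EIF4E3, which fell, against 2.82% of measured genes. EIF4EBP1 was not among the matched genes. EIF3F, EIF3K and EIF4B had both CACGTG and a pyrimidine run at the start. These are descriptions of letters in a window, without a test.

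Widening the search for a C and 4 pyrimidines to any place from 5 bases before to 10 bases from the start gave 21 members, 8 of them higher and 1 lower with a median of 0.21, and left 23 members with a median of -0.09 (2 higher, 3 lower). This wider run was in 30% of measured genes. Of 2575 other genes with it, 21.1% were higher and 15.8% lower, and of 6038 without it, 19.1% and 17.7%. Among genes with 1 annotated start, the 11 members with a run at the start had a median of 0.24 (6 higher, none lower) and the 22 without it -0.06 (2 higher, 2 lower).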
